A study of Mus musculus with 4 samples.

Results

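Inhibitory checkpoint receptors are surface proteins that restrain T cells after activation. The genes followed here were Pdcd1 (PD-1), Havcr2 (TIM-3), Lag3 (LAG-3), Tigit (TIGIT), Ctla4 (CTLA-4), Vsir (VISTA) and Cd200 (CD200). They were chosen by name, and all 7 were among the 12763 genes of a single-cell expression table of mouse CD8 T cells. Of them, CD200 is mainly a ligand, which acts through the receptor CD200R on other cells, and VISTA acts both as a ligand and as a receptor, so the word receptor is used below for the set as a whole.

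PD-1, LAG-3, TIGIT, TIM-3 and CTLA-4 are induced by signals of the T cell receptor, and when antigen persists, as in a tumour, they stay on the cell surface together. PD-1 and TIGIT recruit phosphatases through tyrosine motifs in their tails, CTLA-4 competes with CD28 for the ligands CD80 and CD86, and LAG-3 binds MHC class II and other ligands. VISTA differs in that resting naive T cells carry it and help to stay quiescent through it.

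The cells came from mixed bone marrow chimeras. Lethally irradiated C57BL/6 mice received marrow of Cd4creCd137fl/flROSA26tomato and Cd137fl/flROSA26tomato donors and were injected under the skin with B16K1 melanoma cells, a line derived from the mouse melanoma B16. Cre driven by the Cd4 promoter acts in developing T cells, including those that become CD8 T cells, and removes the loxP-flanked part of Cd137 (gene Tnfrsf9), which encodes a costimulatory receptor of activated T cells. At day 21 spleens and tumours were taken, and their CD8 T cells were separated by tomato fluorescence into fractions named CD137 minus and CD137 plus, and for each fraction cells of 7 mice were pooled into 1 library of 5′ transcript tags. The labels contradict each other on which fraction was tomato positive, so the groups follow the CD137 status. Donor, Cre and sort gate differ between the fractions together with CD137 and cannot be told apart. Whether T cells of the irradiated hosts remained in the tomato-negative gate is not stated.

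There were 2464 cells in the spleen minus library, 473 in spleen plus, 1262 in tumour minus and 2766 in tumour plus. The deposited values are natural logs of whole numbers that look corrected to 1 depth per library, called corrected counts here. Per cell they summed to a median of 3973, 5344, 4833.5 and 3701.5 in that order. A value of Cd8a or Cd8b1 was present in 99.1% to 99.3% of cells of each library. Tnfrsf9 stood at 57.5 CPM (corrected counts per 1e+06 of the library) in tumour minus and 421 in tumour plus, and at 2.34 and 16.2 in spleen. Which exons were deleted is not stated. Between the libraries 19 cell barcodes were shared, 1 of them by the tumour libraries. With 1 library per group and no mouse assigned to a cell, differences are given without a test or a replicate error. The 95% intervals beside percentages are exact binomial and cover counting error only, and in summed levels fewer cells with a gene and less RNA per cell cannot be told apart.

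The genes lie on 5 chromosomes of mm10. Pdcd1 (ENSMUSG00000026285.7) spans chr1:94038305-94052553 on the minus strand with 5 exons, Tigit (ENSMUSG00000071552.5) spans chr16:43648867-43664146 on the minus strand with 4 exons, and Lag3 (ENSMUSG00000030124.2) spans chr6:124904361-124911705 on the minus strand. Cd200 (ENSMUSG00000022661.14) is also on chromosome 16, at chr16:45382135-45409053 on the minus strand. Havcr2 (ENSMUSG00000020399.14) spans chr11:46454935-46481255 on the plus strand. Ctla4 (ENSMUSG00000026011.13) spans chr1:60887000-60915832 on the plus strand and overlaps the processed pseudogene Rpl18-ps1 on the same strand. Vsir (ENSMUSG00000020101.14) spans chr10:60346851-60372684 on the plus strand and overlaps Cdh23, which is read from the opposite strand. Counting by strand is not stated, so tags of Vsir and Cdh23 may not be separable.

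The bases just before the start site are shown for Pdcd1 and Tigit, which were high in the tumour together, and for Vsir, which was not. They are RefSeq promoters of GRCm38.p6 (the mm10 assembly), 250 bases each, 5′ to 3′ on the strand of the gene, from chr1:94052554-94052803, chr16:43664185-43664434 and chr10:60346601-60346850. Capitals mark the core of the motif bound by NFAT, a factor switched on by calcium after T cell receptor signalling, searched as GGAAA on both strands, so that it can read TTTCC.
Pdcd1: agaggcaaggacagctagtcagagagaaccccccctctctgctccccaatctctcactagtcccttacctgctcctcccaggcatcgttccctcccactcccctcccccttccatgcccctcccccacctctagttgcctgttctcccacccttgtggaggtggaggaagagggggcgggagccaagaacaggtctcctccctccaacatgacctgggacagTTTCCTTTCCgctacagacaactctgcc
Tigit: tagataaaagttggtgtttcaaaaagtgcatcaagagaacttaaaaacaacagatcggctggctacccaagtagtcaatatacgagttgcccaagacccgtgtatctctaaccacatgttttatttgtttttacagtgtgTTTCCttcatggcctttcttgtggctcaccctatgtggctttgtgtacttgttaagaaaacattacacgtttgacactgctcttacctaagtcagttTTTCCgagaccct
Vsir: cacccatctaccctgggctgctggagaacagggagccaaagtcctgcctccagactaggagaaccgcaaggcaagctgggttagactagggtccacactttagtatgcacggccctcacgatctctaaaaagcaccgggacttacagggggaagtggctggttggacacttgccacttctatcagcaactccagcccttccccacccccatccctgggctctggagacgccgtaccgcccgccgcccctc
The Pdcd1 window held the core at 28 and 23 bases before the start site, side by side, and the Tigit window held it at 110 and 13 bases before. The Vsir window held none, and neither did those of Havcr2 and Cd200, which were higher in the tumour too. Across the 6 receptors with a promoter in the table, which has no entry for Lag3, the core was found in 3 (Pdcd1, Tigit and Ctla4), and it is a short motif present in 55.6% of 32851 promoters of the same length. The AP-1 motif TGANTCA was found in 1 of the 6, Havcr2, against 6.75% of all promoters. The NR4A motif AAAGGTCA and the NF-kB motif were found in 0 of the 6, against 1.34% and 45.8%. E-boxes (CANNTG), the motif of basic helix-loop-helix factors, were found in 4 of the 6, against 66.2%. These are letter matches in a window and not measured binding sites.

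In the spleen 6 of the 7 receptors were near the lower end of detection, and in the tumour those 6 were many times higher, while Vsir was the reverse. Levels are given as corrected counts summed over the cells of a library and scaled to 1e+06 (CPM), from tags at transcript 5′ ends and not per length, so each gene is compared between libraries and not with other genes.

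Pdcd1 encodes PD-1, the receptor of PD-L1 and PD-L2. Its level was 5.09 CPM in spleen minus, 9.73 in spleen plus, 363 in tumour minus and 518 in tumour plus. A Pdcd1 value was found in 1.34% of spleen minus cells (0.924 to 1.88), 2.54% of spleen plus cells (1.32 to 4.39), 40.7% of tumour minus cells (38.0 to 43.5) and 55.2% of tumour plus cells (53.3 to 57.1). Here and below these intervals cover counting error over the cells of a library, so overlap or its absence does not compare the fractions.

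Tigit encodes TIGIT, which shares the ligands PVR and nectins with the activating receptor CD226. Its level was 6.41, 17.4, 254 and 412 CPM in the same order of libraries. Tigit values were in 1.83% of spleen minus cells (1.34 to 2.44), 4.02% of spleen plus (2.44 to 6.20), 35.9% of tumour minus (33.2 to 38.6) and 50.8% of tumour plus (48.9 to 52.7). Tumour plus was the highest library and spleen minus the lowest for Tigit, as for Pdcd1.

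Lag3 encodes LAG-3, a relative of CD4. Its level was 4.17, 25.9, 251 and 344 CPM. Lag3 values were in 1.26% (0.856 to 1.78), 3.38% (1.95 to 5.44), 34.5% (31.8 to 37.2) and 45.4% (43.6 to 47.3) of cells. In spleen plus a few cells carried much of it: 16 cells summed to 64 corrected counts, and 1 of those cells held 18.

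Ctla4 encodes CTLA-4, which in CD8 T cells is largely kept inside the cell. Its level was 6.61, 13.0, 166 and 209.7 CPM. Ctla4 values were in 2.44% (1.86 to 3.12), 5.50% (3.62 to 7.95), 32.5% (29.9 to 35.2) and 36.5% (34.7 to 38.3) of cells. The tumour libraries were closer to each other than for Pdcd1, Tigit or Lag3, and their intervals overlap slightly.

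Havcr2 encodes TIM-3, known from terminally exhausted and effector T cells. It was listed at 0 in spleen minus, where nearly all genes found in under 5 cells are set to 0, and stood at 4.46 CPM in spleen plus (6 cells), 32.0 in tumour minus and 48.0 in tumour plus. Havcr2 values were in 9.27% of tumour minus cells (7.73 to 11.0) and 12.9% of tumour plus cells (11.6 to 14.2). Cd200 stood at 5.49, 4.05, 26.7 and 24.2 CPM, with values in 2.03% (1.51 to 2.67), 1.48% (0.597 to 3.03), 9.43% (7.87 to 11.2) and 7.19% (6.26 to 8.22) of cells. For Cd200 the order within each tissue was turned, minus above plus, with overlapping intervals.

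Vsir stood at 158 CPM in spleen minus, 159 in spleen plus, 95.4 in tumour minus and 89.5 in tumour plus. Vsir values were in 44.4% (42.4 to 46.4), 49.9% (45.3 to 54.5), 33.3% (30.7 to 36.0) and 25.6% (24.0 to 27.3) of cells. It was the 1 receptor found in a large share of spleen cells and the 1 with less in the tumour.

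**Figure D1:**
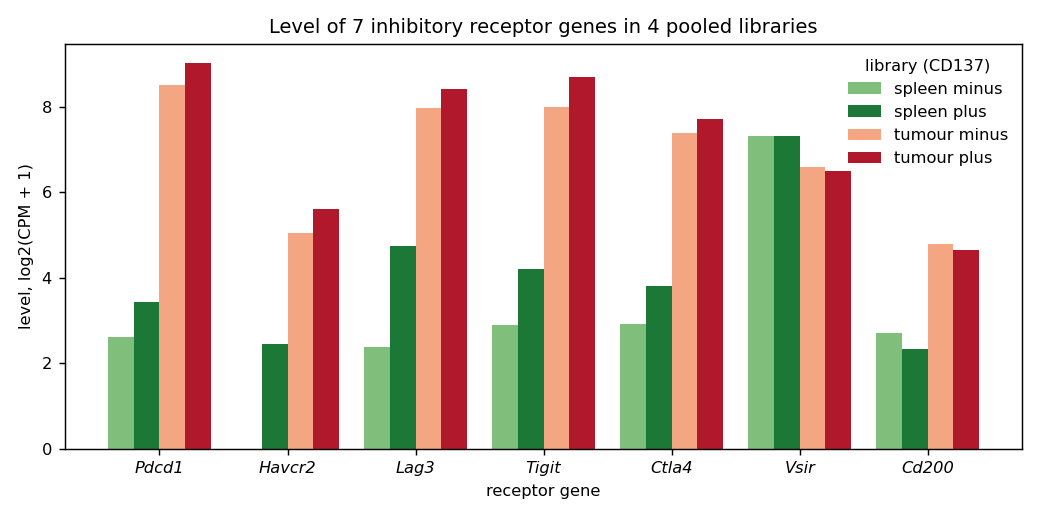
Level of each receptor gene on the vertical axis, as log2 of CPM plus 1, in the 4 libraries (bars, 1 library each, no error). All genes but Vsir are higher in the tumour libraries, with Pdcd1 at 363 and 518 CPM there, and Havcr2 has no bar in spleen minus because it is listed at 0.

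Depth differed between the libraries and a share of cells with a value depends on it, so each cell was also thinned to 2900 corrected counts, a total that every cell reached. Tumour shares became 35.9% in minus and 52.0% in plus for Pdcd1, 31.1% and 46.9% for Tigit, 30.1% and 42.0% for Lag3, 24.2% and 31.6% for Ctla4 and 6.58% and 10.3% for Havcr2. For those 5 genes the gap stayed or widened. For Vsir it closed: 33.3% against 25.6% became 21.0% against 20.5%. Cd200 went to 5.94% and 5.28%.

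Free RNA can give values in cells that do not express a gene. Spleen cells with a value of Tcf7, which encodes TCF1, a factor of naive and memory T cells, had Pdcd1 in 1.09% of cells in minus and 1.99% in plus, at median corrected totals of 4017 and 5386. For the other receptors apart from Vsir the shares in those cells ran from 0% to 2.49% in minus and from 0.570% to 5.70% in plus. Tcf7 cells made up 66.8% and 74.2% of the spleen libraries and may hold memory cells, so they do not set a background for the spleen, and how much of the low spleen shares is free RNA was not tested. Single spleen plus cells held up to 18 corrected counts of Lag3 and up to 8 of Pdcd1. Tcf7 cells of the tumour had Pdcd1 in 20.8% (minus, median total 4956) and 30.5% (plus, 3856.5). Cells with values of at least 2 melanoma genes, 10 in tumour minus and 40 in tumour plus, had Pdcd1 in 20% (2.52 to 55.6) and 60% (43.3 to 75.1) and Lag3 in 0% and 30% (16.6 to 46.5), so they do not form a population free of the receptors. The part of free RNA and doublets in these shares was not tested.

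Next, tumour was set against spleen within each fraction. The log2 ratio was taken with a pseudocount of 1 CPM. Measured genes were those that reached 20 CPM and 5% of cells in 1 library of the comparison and were listed above 0 in both. It was called if the ratio reached 0.5 in size. In the plus fraction 6 of 7 receptors were called higher in tumour, against 24.2% of 5710 measured genes, and Vsir was called lower, against 17.5%. Those 6 passed the filter only through the tumour library, where they are high. Their call was thus largely fixed by the filter, and the share over all genes is not a background for it. The ratios were 5.60 for Pdcd1, 4.49 for Tigit, 3.91 for Ctla4, 3.68 for Lag3, 3.17 for Havcr2, 2.32 for Cd200 and -0.83 for Vsir. The median receptor stood at 3.68 and the median gene at 0.07.

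In the minus fraction 5 of the 6 measured receptors were called higher, against 22% of 5412 genes, and Vsir lower, against 14.5%. Those 5 again passed the filter only through the tumour library, so the same limit holds. The ratios were 5.90 for Pdcd1, 5.61 for Lag3, 5.11 for Tigit, 4.45 for Ctla4, 2.09 for Cd200 and -0.72 for Vsir, with a median of 4.78 for receptors and 0.03 for all genes. Havcr2 was not measured because it is listed at 0 in spleen minus. Pdcd1 was above 99.9% of measured genes in both fractions. The spleen levels behind these ratios are low: Pdcd1 rests on 50 corrected counts in spleen minus and 24 in spleen plus. With a pseudocount of 10 CPM the Pdcd1 ratio was 4.74 in plus and 4.63 in minus.

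Genes of the same pathway were taken from lists. Of the ligands, 5 of 7 measured genes were higher in tumour plus than spleen plus and 0 lower. Pdcd1lg2, which encodes the PD-1 ligand PD-L2, stood at 48.1 against 2.03 CPM, and Lgals3, a galectin that binds LAG-3, at 171 against 34.9. Cd86, a ligand of CTLA-4, stood at 31.6 against 10.9 and Cd274, which encodes PD-L1, at 29.4 against 15.0. Of 3 receptors that share these ligands but activate, 2 were higher: Icos at 184 against 24.3 CPM and Cd28 at 234 against 97.7, whereas Cd226 was at 81.2 against 76.6. Of 9 measured genes on a list of other inhibitory receptors, which also holds the ectoenzyme gene Entpd1, 4 were higher and 2 lower. Lilrb4a (59.1 against 6.89) and Klrc1, the NKG2A gene (218 against 76.6), were among the higher, as was Entpd1 (37.5 against 8.11), and Cd72 (26.4 against 60.4) was among the lower. Phosphatases, adaptors and trafficking proteins had 4 of 18 higher and 3 lower. Transcription factors linked to the receptors had 11 of 16 higher and 1 lower, led by Nr4a2 (1003 against 12.6 CPM), with Tcf7 as the lower gene (78.6 against 312). Over all measured genes 24.2% were higher and 17.5% lower, which is near the shares of the phosphatase list. List genes low in the spleen, such as Pdcd1lg2 and Nr4a2, passed the filter only through the tumour library, as the receptors did. In the minus fraction 4 of 7 ligands were higher and 0 lower, 2 of 3 activating receptors higher and 0 lower, 4 of 8 other inhibitory receptors higher and 1 lower, and 11 of 16 factors higher and 1 lower. The phosphatase list had 8 of 18 higher there, among them Sh2d2a at 429.8 against 104 CPM and Ptpn11, the phosphatase SHP-2, at 50.8 against 25.0, and 1 lower, Csk, at 106 against 166. The shares over all genes in that fraction were 22% and 14.5%.

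The main contrast of the design was CD137 minus against plus in the tumour. Pdcd1, Havcr2 and Tigit were called lower in minus, Lag3 and Ctla4 lay below 0 without reaching the limit, and Vsir and Cd200 lay just above 0. The log2 ratios were -0.70 for Tigit, -0.57 for Havcr2, -0.51 for Pdcd1, -0.45 for Lag3, -0.34 for Ctla4, 0.09 for Vsir and 0.13 for Cd200. That is 3 of 7 lower, against 5.44% of 5353 measured genes, and 0 of 7 higher, against 1.7%. The median receptor stood at -0.45 and the median gene at -0.13. Relative to the median gene 1 receptor, Tigit at -0.56, was still lower, against 2.3% of genes, and 0 were higher, against 3.68%.

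**Figure D2:**
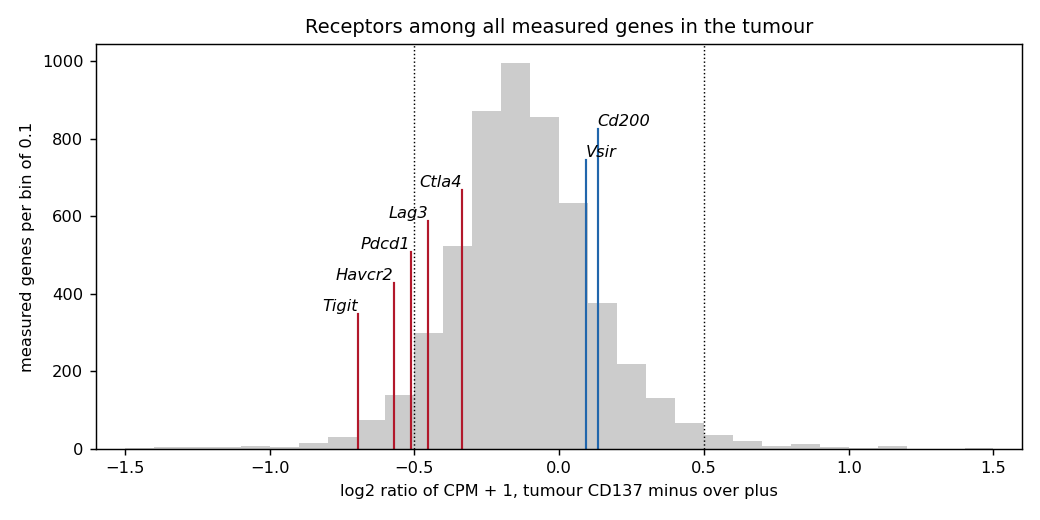
Distribution of the log2 ratio of CPM plus 1, tumour CD137 minus over plus, over 5353 measured genes (grey bars, genes per bin of 0.1), with each receptor as a vertical line whose height has no meaning and dotted lines at the size limit of 0.5. Tigit (-0.70), Havcr2 (-0.57) and Pdcd1 (-0.51) lie beyond the lower limit, and Vsir (0.09) and Cd200 (0.13) lie to the right of 0.

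These ratios depend on the scaling and on which cells the libraries hold. As mean corrected counts per cell, not scaled to the library total, they were -0.33 for Tigit, -0.22 for Havcr2, -0.15 for Pdcd1 and -0.09 for Lag3, Ctla4 turned to 0.03, and no receptor was called, while the median gene stood at 0.23. In that form 0.729% of genes were lower and 12.9% higher. Tcf7 was in 30.0% of tumour minus and 19.8% of tumour plus cells, 21.1% and 15.9% after thinning. Among cells without a Tcf7 value, a subset chosen after seeing the data, Tigit alone was called, at -0.54. Ratios there were also -0.48 for Havcr2, -0.38 for Pdcd1, -0.30 for Lag3 and -0.25 for Ctla4. The share over all genes was not computed for that subset.

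Markers of cell states differed between the libraries too. Of 6 exhausted-like markers outside the receptor set 5 were called lower, against 5.44% of all measured genes, and 0 higher, with a median of -0.54. Relative to the median gene 1 of them, Rgs16, was still lower, against 2.3%. Rgs16, a regulator of G protein signals, stood at 321 against 536 CPM (-0.74), Entpd1, the ectoenzyme CD39, at 24.8 against 37.5 (-0.57) and Nr4a2 at 683 against 1003 (-0.55). Their summed level was 1625 and 2415 CPM. Of 6 CD8 T cell markers (Cd3d, Cd3e, Cd3g, Cd8a, Cd8b1 and Trac) 0 were called, with a median of -0.28. The lowest of these were Trac at -0.48 and Cd8a at -0.39. How far the make-up of the libraries accounts for the receptor ratios was not tested beyond the splits given here.

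Among the genes around the receptors the ligands had 1 of 8 measured genes lower in minus and 0 higher: Lgals3 at 87.9 against 171 CPM (-0.95), next to Cd86 at -0.44, Pdcd1lg2 at -0.40 and Hmgb1, an alarmin that binds TIM-3, at -0.27. Over all measured genes 5.44% were lower and 1.7% higher, which is the background for each list here. The list of other inhibitory receptors had 3 of 8 lower and 0 higher, and 2 lower relative to the median gene. The 3 were Klrc1 (100.04 against 218 CPM, -1.12), Lilrb4a (34.4 against 59.1, -0.76) and Entpd1. Entpd1 encodes an ectoenzyme and not a receptor, and is on the exhausted-like list too. The next was Cd72 at 0.31. The activating receptors Cd28 (0.09), Icos (-0.20) and Cd226 (-0.11) had 0 of 3 called. Phosphatases, adaptors and trafficking proteins had 0 of 18 called and a median of -0.10. The largest ratios there were -0.42 for Dok1, an adaptor that dampens signalling, -0.34 for Ap2m1, a subunit of the complex that takes CTLA-4 off the surface, and -0.32 for Ptpn6, the phosphatase SHP-1. The transcription factors had 3 of 16 lower and 0 higher: Tbx21, the T-bet gene, at 81.7 against 134 CPM (-0.71), Nr4a2 (-0.55) and Tox, a factor that maintains exhausted cells, at 131 against 190.2 (-0.53). Relative to the median gene 1 of these factors stayed lower and 2 were higher.

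In the spleen the contrast could be read for Vsir alone. Of the 7 receptors it was the 1 measured there, at -0.01, and 0 were called, against 10.3% of 5183 genes lower and 1.41% higher. The other 6 were under the filter, on 0 to 65 corrected counts per library. Their levels in minus against plus were 5.09 against 9.73 CPM for Pdcd1, 6.41 against 17.4 for Tigit, 6.61 against 13.0 for Ctla4, 4.17 against 25.9 for Lag3 and 5.49 against 4.05 for Cd200, and Havcr2 was listed at 0 against 4.46. Minus was thus the lower library for 5 of these 6 and the higher for Cd200.

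CD4 regulatory T cells carry much CTLA-4 and TIGIT, so their markers were counted. Tumour minus had 25 cells with a Cd4 or Foxp3 value (1.98%, 1.29 to 2.91) and tumour plus had 24 (0.868%, 0.557 to 1.29), and 1 cell in each had neither Cd8a nor Cd8b1. The 4 markers Cd4, Foxp3, Il2ra and Ikzf2 were all in the table, and their summed level was 104 CPM in tumour minus, 109 in tumour plus, 20.2 in spleen minus and 12.6 in spleen plus. Foxp3 was listed at 0 in both spleen libraries, and Cd4 and Il2ra in spleen plus. Without those cells the tumour ratios were -0.72 for Tigit, -0.53 for Pdcd1, -0.50 for Lag3 and -0.35 for Ctla4, and 4 of 7 were called lower. Lag3 was just past the limit, and the share over all genes was not computed for this subset. The 5 macrophage markers in the table summed to 22.2 and 26.5 CPM in the tumour libraries and the 5 of melanoma cells to 34.3 and 33.4, with Tyrp1 at 0 in minus.

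How many of the 7 receptors had a value in the same cell was then counted. Tumour minus cells had a mean of 1.96 receptors (SD over cells 1.83, 1262 cells) and tumour plus cells 2.34 (SD 1.72, 2766 cells). In the spleen the means were 0.533 and 0.681, most of which was Vsir: without Vsir and Cd200 they were 0.0686 and 0.167. At least 3 receptors were found in 33.6% of tumour minus cells (31.0 to 36.3) and 45.8% of tumour plus cells (43.9 to 47.7), against 0.609% (0.341 to 1.00) and 3.17% (1.79 to 5.18) in the spleen.

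The shapes differed as well. In tumour minus 25.8% of cells (23.4 to 28.3) had no receptor and 28.1% had 1, against 17.9% (16.4 to 19.3) and 20.4% in plus. Cells with 3 made up 9.59% in minus and 17.1% in plus, and cells with 4 made up 10.9% and 16.6%. At the top the libraries met: 5 or more were found in 13.1% (11.3 to 15.1) and 12.0% (10.8 to 13.3), and all 7 in 8 cells and 9 cells. The tumour minus library thus had a larger share of cells with no receptor or 1 and a smaller share with 3 or 4. At 5 or more the intervals overlap, but they cover counting error over cells only and do not compare the fractions. After thinning the share with at least 3 was 27.8% (25.4 to 30.4) and 40.8% (38.9 to 42.6), and with 5 or more 6.26% (4.99 to 7.74) and 6.98% (6.06 to 7.99), so the order at the top turned within overlapping intervals. When a receptor counted only from 2 corrected counts on, at least 3 were found in 22.8% and 25.5% of cells and 5 or more in 2.61% and 1.08%, with minus above plus at the top. That form was not thinned, and depth per cell was higher in minus.

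**Figure D3:**
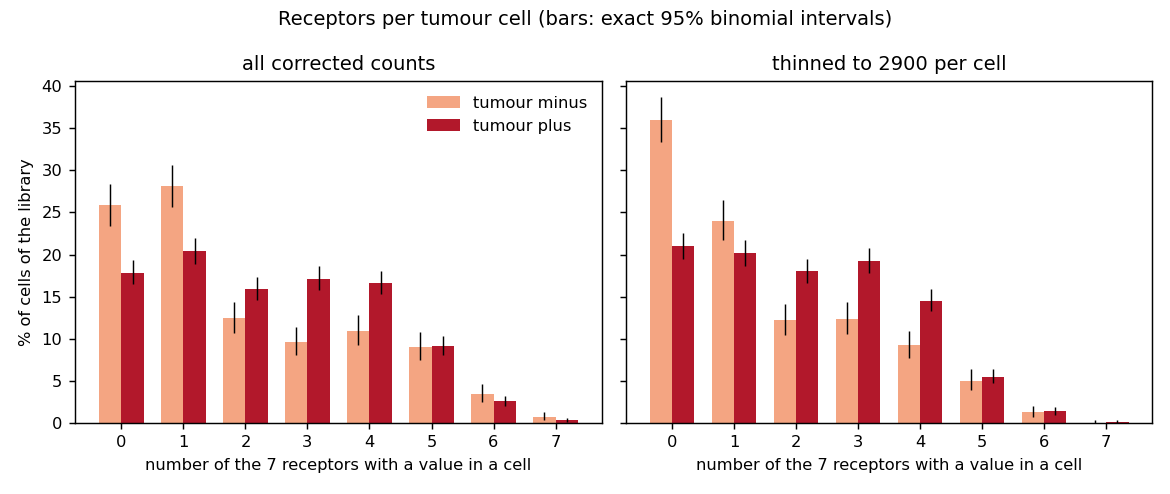
Share of cells of each tumour library (vertical axis, %) by the number of the 7 receptors with a value in the cell (horizontal axis), with all corrected counts at left and after thinning to 2900 per cell at right; lines on the bars are exact 95% binomial intervals. Tumour minus leads at 0 (25.8% against 17.9%) and tumour plus at 3 and 4 receptors in both panels.

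Named combinations show which receptors these were. Besides none, the leading state of tumour minus was Vsir alone, with 14.7% of cells (12.8 to 16.7), against 7.12% (6.19 to 8.14) in plus. The joint state of Pdcd1, Lag3, Tigit and Ctla4 with nothing else made up 5.78% (4.56 to 7.22) in minus and 8.10% (7.11 to 9.18) in plus, and Pdcd1, Lag3 and Tigit without the rest 2.93% (2.07 to 4.02) and 5.97% (5.11 to 6.91). Pdcd1 alone was in 5.31% (4.14 to 6.69) and 4.59% (3.84 to 5.44), with overlapping intervals. After thinning Vsir alone was in 10.5% (8.90 to 12.4) and 6.11% (5.25 to 7.07), the joint state of 4 in 4.75% (3.65 to 6.08) and 7.12% (6.19 to 8.14), and Pdcd1, Lag3 and Tigit in 5.15% (4.00 to 6.52) and 6.58% (5.68 to 7.57), where the intervals overlap. Pdcd1 alone was then in 4.75% and 5.31%, the opposite order, again with overlapping intervals. In all 81 combinations were seen in minus and 101 in plus.

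Cells with a Pdcd1 value were then compared between the libraries. The mean number of the other 6 receptors was 2.61 in 514 tumour minus cells and 2.42 in 1527 tumour plus cells, and 2.19 and 2.12 after thinning. With at least 2 corrected counts per receptor it was 2.02 and 1.57, a wider gap. Of those cells 67.7% (63.5 to 71.7) in minus and 65.2% in plus had Lag3, 67.1% and 71.6% had Tigit, and 18.7% and 18.8% had Havcr2. Ctla4 was in 58.4% (54.0 to 62.7) and 51.1% (48.5 to 53.6), and in 47.7% (43.0 to 52.4) and 44.4% (41.8 to 47.0) after thinning, where the intervals overlap. Cd200 was in 19.3% (15.9 to 22.9) and 10.5%, and after thinning in 12.8% (9.87 to 16.2) and 7.16% (5.88 to 8.61). Among cells without Pdcd1 the other receptors averaged 0.820 in minus and 1.00 in plus, 0.628 and 0.962 after thinning. Pdcd1 is itself 1 of the receptors counted, so this split describes the cells and does not locate the difference between the libraries.

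Pairs were compared with the product of their single shares, the value for 2 receptors placed in cells without regard to each other. All 15 pairs without Vsir were above it, by 1.80 to 3.26 times in minus and 1.40 to 1.72 times in plus. The ratio was higher in minus for 15 of 15 pairs, and after thinning for 15 of 15 again, at 1.82 to 3.45 and 1.36 to 1.74. Where a receptor is in fewer cells the ratio can reach further, and single shares were lower in minus for 5 of these genes. Lag3 and Pdcd1, for example, were together in 27.6% of minus cells against a product of 14.0%, and in 36.0% of plus cells against 25.1%, while the share of Lag3 cells that also had Pdcd1 was 80.0% in minus and 79.2% in plus. Havcr2 and Cd200 gave the ratio furthest from 1 in minus, 3.26, from 36 cells.

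Vsir stood apart from the rest. Its 6 pairs lay between 0.894 and 1.08 in minus and between 0.956 and 1.21 in plus, near the product. Pearson correlations of log values over cells of a library, which share library and depth, ran from 0.19 to 0.62 for the 15 pairs without Vsir in minus and from 0.07 to 0.49 in plus, with Lag3 and Tigit the closest pair in both (0.62 in 1262 cells and 0.49 in 2766). They were higher in minus for 15 of 15, though Havcr2 and Tigit were nearly level at 0.187 and 0.186. These pairs share genes and cells, depth was higher in minus, and the correlations were not taken again after thinning. For Vsir with Pdcd1 the correlations were -0.04 in both libraries.

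**Figure D4:**
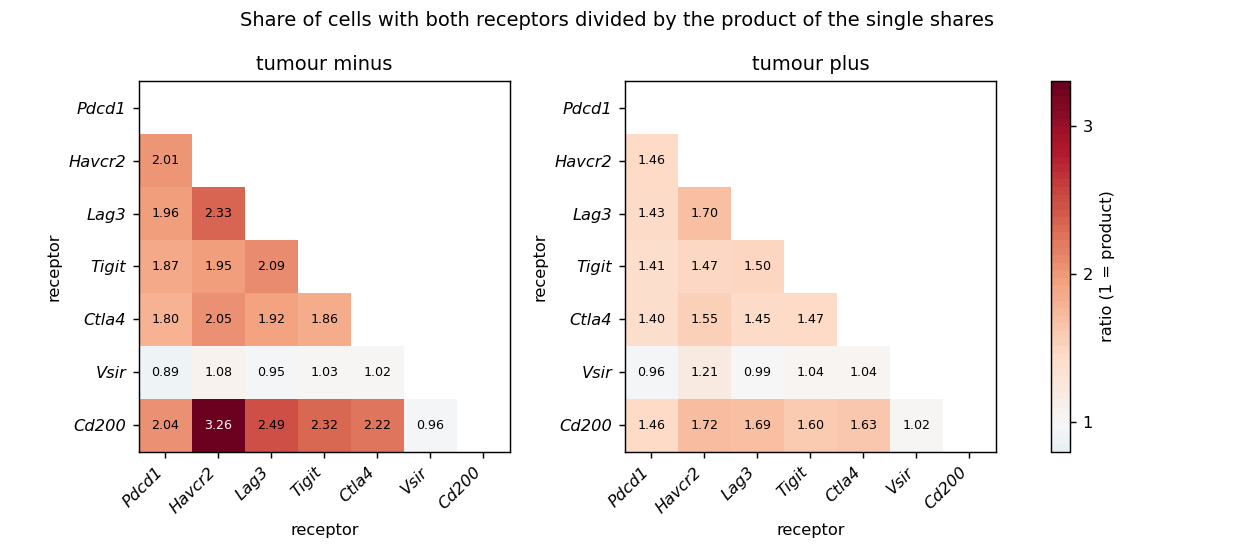
Ratio of the share of cells with both receptors to the product of the single shares, for the 21 pairs in each tumour library (colour and printed value, 1 means the product). Pairs without Vsir run from 1.80 to 3.26 in minus and from 1.40 to 1.72 in plus, and pairs with Vsir stay between 0.894 and 1.21.

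Other genes were read along the number of receptors. Tcf7, needed by naive cells and by the stem-like pool of exhausted cells, went from 41.7% of cells without a receptor (36.3 to 47.3) to 11.5% of cells with 5 or more (7.08 to 17.4) in minus and from 35.8% to 8.11% in plus. In the other direction went Tox, from 13.2% to 75.8% (68.5 to 82.1) in minus and from 13.2% to 64.0% (58.6 to 69.1) in plus, and Cxcr6, a chemokine receptor of tumour-resident T cells, from 14.1% to 82.4% and from 14.8% to 76.6%. Median corrected totals of those cells were 4723.5 without a receptor and 5294 with 5 or more in minus, and 3533 and 4124 in plus. These totals moved with Tox and Cxcr6 and against Tcf7, and their part was not tested. Scaled to the total of those cells, Tox stood at 39.9 and 306 CPM in minus and at 50.5 and 297 in plus. Cxcr6 stood at 52.1 and 679 in minus and at 74.3 and 641 in plus, and Tcf7 at 150.5 and 23.7 and at 143 and 24.8.

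Gzmb, which encodes the cytotoxic protease granzyme B, differed less along that axis. It went from 9.82% (6.81 to 13.6) to 21.8% (15.8 to 28.9) in minus and from 20.4% (17.0 to 24.3) to 33.9% (28.9 to 39.3) in plus. Its level in those cells was 123 and 121 CPM in minus and 231 and 250 in plus, so the level hardly moved with the share. At every number of receptors its share was lower in minus than in plus, and the intervals do not compare the fractions. Mki67, a gene of dividing cells, went from 2.76% to 9.70% and from 2.83% to 6.31%. Its level there was 22.5 and 26.1 CPM in minus and 12.8 and 22.5 in plus. Tnfrsf9 itself was in 1.84% (0.678 to 3.96) of minus cells without a receptor and 49.7% (41.8 to 57.6) with 5 or more, against 14.8% (11.8 to 18.2) and 81.1% (76.5 to 85.1) in plus.

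**Figure D5:**
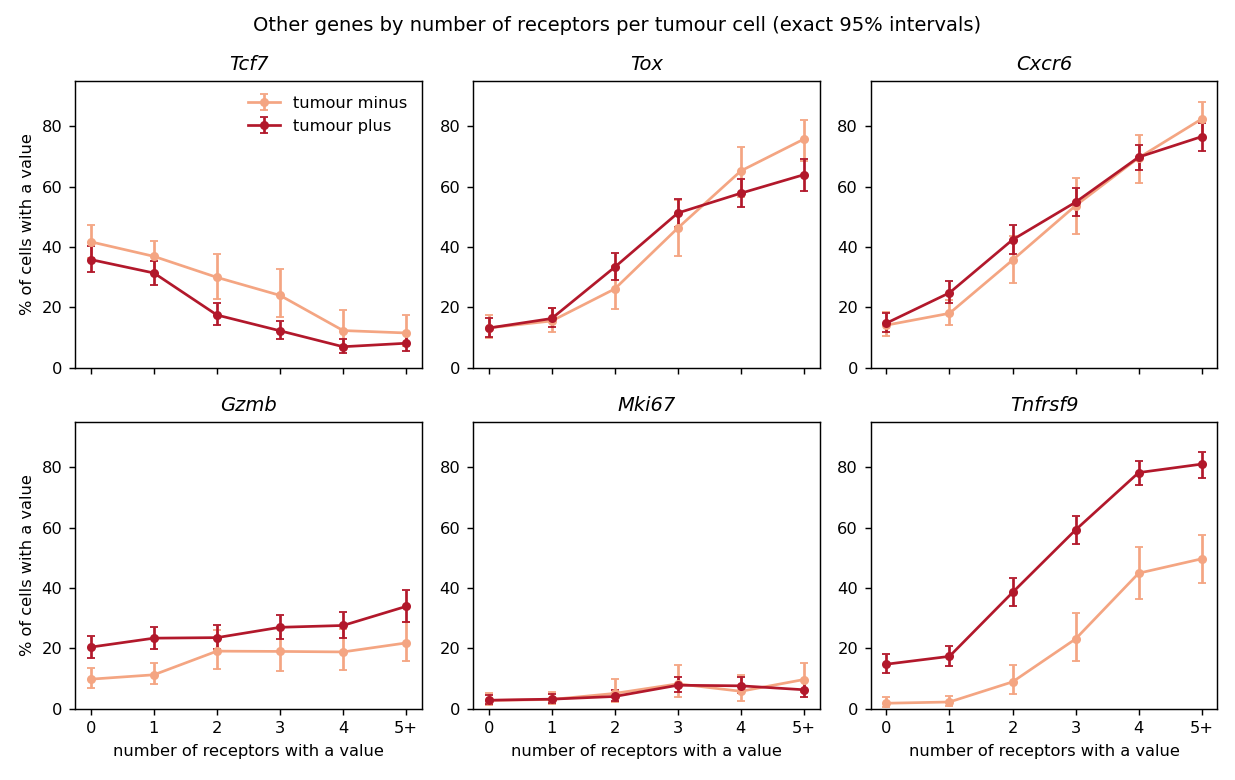
Share of tumour cells with a value of 6 other genes (vertical axes, %, with exact 95% binomial intervals) by number of receptors with a value in the cell (horizontal axis), for each tumour library. Tcf7 is lower and Tox, Cxcr6 and Tnfrsf9 are higher toward the right in both libraries, and Gzmb is lower in minus at each number, at 21.8% against 33.9% for 5 or more.

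Split by Tnfrsf9, the libraries were close on the negative side. Cells without a Tnfrsf9 value, 84.2% of tumour minus and 54.7% of tumour plus, had a mean of 1.56 and 1.53 receptors, and 23.7% (21.2 to 26.4) and 23.5% (21.4 to 25.7) had at least 3. Single receptors there were Pdcd1 in 32.2% (29.4 to 35.1) and 36.6% (34.2 to 39.1), Lag3 in 25.0% and 24.0%, Ctla4 in 25.6% and 23.8% and Tigit in 27.2% (24.6 to 30.0) and 32.5% (30.1 to 34.9). Cells with a Tnfrsf9 value had 4.04 receptors in minus (200 cells) and 3.32 in plus (1252 cells), and 86.0% (80.4 to 90.5) and 72.8% (70.2 to 75.2) had at least 3. After thinning the means were 1.30 and 1.45 without Tnfrsf9 and 3.40 and 2.97 with it, and at least 3 receptors were in 20.9% (18.6 to 23.4) and 22.8% (20.8 to 24.9) of cells without it. Since Cd137 is the gene deleted in the minus donor, cells with and without its transcript are not the same kind of cell in both libraries, and depth per cell was higher in minus.

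The other splits differed in where the gap lay. Cells with a Tcf7 value had a mean of 1.27 receptors in minus and 1.42 in plus, and cells without it 2.25 and 2.56. Cells without a Tox value had 1.33 and 1.82, and cells with it 3.27 and 3.22. Cells without Cxcr6 had 1.23 and 1.66, and cells with it 3.21 and 3.18. After thinning, cells without Tox had 1.14 and 1.71 and cells with it 2.81 and 2.87, cells without Cxcr6 1.05 and 1.57 and cells with it 2.71 and 2.85, and cells without Tcf7 1.73 and 2.25 and cells with it 0.850 and 1.25. Means of Tox and of Cxcr6 cells were closer between the libraries than means of the cells without them, in both forms, and the minus library was the lower of the pair in each of these groups after thinning. Tox and Cxcr6 themselves differed between the libraries, at 32.5% and 37.1% of cells for Tox and 36.7% and 44.7% for Cxcr6, so the groups do not hold the same share of each library. Cells with Gzmb had 2.50 and 2.60 receptors, and cells with Mki67 2.81 (62 cells) and 2.89 (143 cells).

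The genes whose values tracked each receptor most closely over tumour cells were ranked by the mean of the correlations in the tumour libraries among 5960 genes. They are a description, since all points of a library share its depth. For Pdcd1 they were Nr4a2 (0.54), an orphan nuclear receptor induced by T cell receptor signals, S100a4 (0.48) and Litaf (0.47). Tigit had the same 3, with Nr4a2 at 0.48. Lag3 had Nrgn (0.48), Tnfrsf9 (0.48) and Nr4a2 (0.47), and Ctla4 had Nr4a2 (0.36), Rgs16 (0.35) and Litaf (0.34).

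Havcr2 and Cd200 had other neighbours. Those of Havcr2 were the chemokine gene Ccl3 (0.30), the perforin gene Prf1 (0.29) and Tnfrsf9 (0.26). Those of Cd200 were Nrgn (0.26), Gpm6b (0.26) and Tnfrsf4 (0.23), the gene of the costimulatory receptor OX40. No gene followed Vsir beyond 0.09 (Pink1). The gene most opposed to Pdcd1, Lag3, Tigit and Ctla4 was Klf2, a factor of quiescent circulating T cells, at -0.50, -0.49, -0.49 and -0.34, looked up after the values were seen.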

How the data were processed

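Per the labels' protocols, CD8 T cells of chimeric mice were isolated with beads, sorted, hashtagged by mouse and pooled, and 5′ single-cell libraries were made with the 10x Chromium kit v1.1. Cell Ranger (3.0.2), Seurat (3.0) and the build mm10 are named per the submitters' processing notes, without filters or normalization. The authors deposited 1 table of natural log values for 6965 cells and 12763 genes. Undoing the log and taking off 1 gives a whole number for each (relative tolerance 1e-12), and these sum per cell to a narrow range in each library, so no count model and no counting interval on levels was used. The design assumed counts or a constant sum, and CPM of these corrected counts departs from it.

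Corrected counts were summed over cells per library and scaled to 1e+06. Ratios, filters and the size limit are given with the results. Percentages of cells carry 95% Clopper-Pearson intervals. Thinning drew 2900 corrected counts per cell without replacement (seed 1). The log2 ratio and the ratio of a pair to its product were tested on simulated data, and the other steps were not. No doublet caller was run. The members, gene lists, splits and comparisons were chosen with earlier results of these data known. Named were all 7 receptors, up to 4 genes per list with the largest absolute log2 ratio in the comparison told, and the 3 nearest genes of each receptor. Other examples, the most opposed genes and the genes told for tumour against spleen were chosen after their values were seen, so were the counts of 5 or more receptors and of other receptors in Pdcd1 cells. Annotation was GENCODE (mm10), promoters RefSeq (GRCm38.p6), which matched 6 of 7 receptors. Proteins were not analysed here, and 1 planned subset of cells and 1 marker list are not reported here. Alternatives were another pseudocount, scaling and centring, a count of at least 2, thinning, and subsets of cells. Software was matplotlib 3.10.9, pandas 2.3.3, scipy 1.17.1, numpy 2.4.6 and Python 3.11.15.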

Additional observations from a re-analysis of the deposited data

Results flagged for a closer look

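The log2 ratio of CD137 minus over plus for Vsir was 0.092 in the tumour and -0.012 in the spleen, so the libraries of the 2 tissues lay on opposite sides of 0. With 1 library per group the difference between the tissues was not tested, both ratios are under the size limit of 0.5, and the spleen ratio turned to 0.064 relative to the median gene.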

How the results depend on the processing

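No paired analysis was possible because each group is 1 library, and no library could be left out. The difference in mean number of receptors per tumour cell, minus less plus, was -0.38 and kept its sign at -0.28 with at least 2 corrected counts, -0.54 after thinning, -0.37 in Cd8 cells without other-cell markers, -0.31 without Tcf7 cells, -0.40 without Cd4 or Foxp3 cells and -0.48 for Pdcd1, Havcr2, Lag3, Tigit and Ctla4 alone. For the other receptors in Pdcd1 cells it was 0.19, and in the first 5 of these settings 0.45, 0.068, 0.18, 0.20 and 0.17. Values with at least 2 corrected counts were not thinned, and depth per cell was higher in minus. The share with 3 or more receptors in minus and plus was 22.8% and 25.5% with at least 2 corrected counts, 27.8% and 40.8% after thinning and 40.7% and 51.8% without Tcf7 cells; the share with 5 or more was 2.61% and 1.08%, 6.26% and 6.98%, and 16.5% and 13.8%. Of 105 receptor ratios under an alternative 91 kept direction and call, 10 dropped under the size limit, 1 passed it and 3 turned: Ctla4 in tumour without scaling (0.028), and Vsir in spleen relative to the median gene (0.064) and without the cells whose barcode is in 2 libraries (0.0094). The number of receptors lower in tumour minus, 3, was 0 without scaling, 1 relative to the median gene, 1 without Tcf7 cells, 2 with a pseudocount of 10 CPM (Havcr2 at -0.47), 2 in Cd8 cells without other-cell markers (Pdcd1 at -0.495) and 4 without Cd4 or Foxp3 cells. For the other pseudocount and the subsets of cells the share over all genes was not computed, so those counts stand without a background. Without scaling Vsir was not called lower in tumour than in spleen minus (-0.46), which left 0 receptors lower. With no filter 947 genes in place of 291 were lower in tumour minus and 493 in place of 91 higher. Without scaling 39 genes were lower and 688 higher. The cause of these shifts was not tested. The settings without shared barcodes, without Tcf7 cells and without Cd4 or Foxp3 cells, the centring of tumour against spleen the thinned splits and combinations, and all settings for Pdcd1 cells and for 5 or more receptors were chosen after seeing the data. In the spleen 6 receptors rest on 0 to 65 corrected counts per library, which limits their ratios.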

Other observations

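Spleen cells with a Pdcd1 value were few, 33 in minus and 12 in plus, and had a mean of 0.788 and 1.75 of the other 6 receptors, against 0.516 and 0.627 in spleen cells without it. Values within tumour cells that had a receptor were set against each cell's total. The median Pdcd1 value was 7.40 per 10000 corrected counts in minus (10th to 90th percentile 2.03 to 18.3) and 7.20 in plus (2.59 to 18.5). For Tigit it was 5.71 and 6.18, for Lag3 5.59 and 6.08 and for Ctla4 3.86 and 4.80. For Havcr2 it was 2.07 and 2.61, for Vsir 2.12 and 2.62 and for Cd200 1.90 and 2.47, close to what 1 corrected count is worth in each library. The lowest values per cell are 1 corrected count, which weighs more where depth is lower, so these low values are not comparable between libraries.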
